A study of Mus musculus with 6 samples.

Results

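The genes of MHC class I antigen presentation were followed in splenic monocytes of mice gavaged with vancomycin or with water. The 10 genes were taken by name: the heavy chains H2-K1 and H2-D1, the light chain B2m, the transporter subunits Tap1 and Tap2, the loading factor Tapbp, the transactivator Nlrc5, the immunoproteasome subunits Psmb8 and Psmb9, and the trimming peptidase Erap1. They are 10 of the 46072 gene identifiers in the count table, and all 10 were among the 16138 that were tested. The lowest estimated count of any of them in any library was 4008, so none was near the filter on low counts. The study asked which expression differences accompany the stronger inflammatory response of monocytes after vancomycin. All mice were female C57BL/6 mice, 8 to 10 weeks of age by the study's methods. The Con group received water by gavage for 6 days and the Van group received vancomycin at 2 mg per mouse per day for the same 6 days, and both were then left untreated for 6 to 8 days by the labels, while the study's text gives 8 days for the sequenced mice. Monocytes were obtained from spleen by magnetic negative selection and were not stimulated before RNA was extracted. Each group held 3 libraries that the labels call biological replicates, and pooling of spleens was not stated for the RNA.

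MHC class I molecules show peptides from the inside of a cell to CD8 T cells. The proteasome cuts cytosolic proteins, the TAP transporter carries the peptides into the endoplasmic reticulum, ERAP1 trims them, tapasin helps to load them, and a heavy chain paired with beta-2 microglobulin takes them to the surface. Interferons are known to raise most of these genes together, through IRF1 and NLRC5 among others, and to exchange constitutive catalytic subunits of the proteasome for those of the immunoproteasome.

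The libraries held between 43.4M and 61.8M estimated counts, which corresponds to an estimated 16.3M to 23.2M fragments. The estimated counts behave as bases covered divided by 75, where the stated read length is 100, so they were set to fragments of 2 reads of 100 bases. Expression levels are given as CPM, the count relative to the library's total, scaled for library composition with TMM factors between 0.990 and 1.008, or as FPKM, which is also scaled to transcript length, where genes are compared with each other. A gene is said to be called where edgeR's test of Van against Con gave a p-value no higher than 0.05 after Benjamini-Hochberg adjustment over all genes tested. The monocyte label was met by its markers. Csf1r, the receptor for the growth factor M-CSF, lay between 2985 and 3619 CPM, and the 10 monocyte markers together summed to between 24580 and 26200 CPM in Con and between 22750 and 25240 in Van. Of these 10 markers, Ccr2, a chemokine receptor of classical monocytes, was called lower in Van, with a log2 fold change of -0.83. By any amount, 7 of the 10 were lower in Van, where 50.4% of all genes tested were. The 3 higher ones included Cd14, with a log2 fold change of 0.28. The neutrophil marker Ly6g was at 0 in all 6 libraries. The 7 NK cell markers summed to at most 2.01 CPM. Markers of other cells moved with the group. The 8 B cell markers summed to between 650 and 737 CPM in Con and between 477 and 527 in Van, mostly through Ighm, an immunoglobulin heavy chain. The 7 erythroid markers summed to between 81.1 and 168 CPM in Con and between 281 and 621 in Van, and 5 of the 7 were called higher. The 7 dendritic cell markers summed to between 128 and 167 CPM in Con and between 123 and 138 in Van, and Clec9a, a receptor of cross-presenting dendritic cells, was called lower. The 7 genes listed as red pulp macrophage markers, of which 0 were called by edgeR, summed to between 3398 and 3812 CPM in Con and between 3873 and 4643 in Van. Of these 7, 6 were higher in Van by any amount. The other, Adgre4, had a log2 fold change of -0.10 and stood at 749 to 979 CPM over the 6 libraries. Of the 6 stromal and endothelial markers, which summed to between 59.5 and 73.8 CPM in Con and between 105 and 183 in Van, Pecam1 was called higher and made up most of the sum, while 4 of the other 5 were lower in Van by any amount. No gene was called among the markers of T cells (31.9 to 54.8 CPM in all over the 6 libraries), plasma cells (270 to 434 CPM), platelets (13.6 to 31.4 CPM) and neutrophils (1.86 to 7.51 CPM). The part of these other cells in the levels of the class I genes was not tested. In bulk RNA, fewer cells of a type and less RNA per cell cannot be told apart.

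On the GRCm38 build, 7 of the 10 genes lie on chromosome 17, within the MHC region. From one end to the other these are Tapbp (33915899 to 33929292), H2-K1 (33996017 to 34000347), Psmb9 (34181987 to 34187764), Tap1 (34187553 to 34197225), Psmb8 (34197721 to 34201454), Tap2 (34203527 to 34216321) and H2-D1 (35262730 to 35267499). H2-K1 and Psmb9 are transcribed from the minus strand and the other 5 from the plus strand. B2m lies on chromosome 2 (122147686 to 122153083), Nlrc5 on chromosome 8 (94434356 to 94527272) and Erap1 on chromosome 13 (74639568 to 74693201), all 3 on the plus strand. All 10 are protein-coding genes, and each interval is the whole gene, exons and introns together.

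Promoter sequences are shown as a description of these genes, and their part in the levels was not tested. RefSeq windows of 250 bases before and 50 after the start site were found for H2-K1, H2-D1, B2m, Tap1, Tapbp, Psmb8, Psmb9 and Erap1, and 32851 such windows of GRCm38.p6 were searched on both strands. The motifs were an interferon-stimulated response element (ISRE, GAAANNGAAA), a gamma-activated site (GAS, TTCNNNGAA), an NF-kB element (GGGANTNNCC) and a CCAAT box (CCAAT). The ISRE occurred in 3.44% of all windows, the GAS in 8.30%, the NF-kB element in 4.16% and the CCAAT box in 37.4%. The 250 bases before the start sites of H2-K1 (chr17:34000348-34000597, minus strand) and B2m (chr2:122147437-122147686, plus strand) are given below from 5′ to 3′ on the strand of the gene. Capitals mark the NF-kB element in H2-K1 and, in B2m, the ISRE followed by the NF-kB element.
H2-K1: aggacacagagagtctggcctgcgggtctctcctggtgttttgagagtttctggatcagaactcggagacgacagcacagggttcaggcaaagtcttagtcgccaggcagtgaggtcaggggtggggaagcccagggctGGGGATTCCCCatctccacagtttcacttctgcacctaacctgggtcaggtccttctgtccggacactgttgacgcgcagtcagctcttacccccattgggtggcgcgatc
B2m: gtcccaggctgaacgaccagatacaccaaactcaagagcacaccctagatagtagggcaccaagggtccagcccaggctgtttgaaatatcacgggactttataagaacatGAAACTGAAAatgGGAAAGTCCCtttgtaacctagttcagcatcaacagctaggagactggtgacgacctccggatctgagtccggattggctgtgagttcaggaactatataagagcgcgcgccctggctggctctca

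The H2-K1 and H2-D1 windows were 88.3% identical over 239 aligned bases. Both hold the same 11-base NF-kB element, which reads as the motif on either strand. It begins 171 bases before the RefSeq start site of H2-D1. For H2-K1 the table holds 2 windows, and the element begins 111 bases before the start site of the one shown and 125 bases before that of the other. The elements, in capitals within 30 bases (chr17:34000438-34000467, minus strand, and chr17:35262914-35262943, plus strand), lie in a run of 47 bases that is identical in both windows. The H2-D1 stretch also lies inside the GENCODE interval of that gene given above, which begins before the RefSeq start site.
H2-K1 element: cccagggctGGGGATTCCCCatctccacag
H2-D1 element: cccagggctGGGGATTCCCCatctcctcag

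Among the peptide-supply genes, Psmb8 held a GAS that begins 97 bases before its start site (chr17:34198088-34198117, plus strand). Erap1 held an ISRE, read on the opposite strand, that begins 4 bases before its start site (chr13:74639839-74639868, plus strand). Both stretches lie inside the GENCODE intervals of these genes given above, which begin before the RefSeq start sites. Tap1 and Psmb9 are transcribed away from each other, from RefSeq start sites 226 bases apart, so that their windows share 275 bases and a CCAAT box (chr17:34187322-34187351, plus strand). That stretch lies inside the GENCODE interval of Psmb9 given above. The motif is in capitals in each of the 3 stretches. CCAAT boxes also occurred in the windows of H2-K1, H2-D1, B2m and Tapbp, and are in lower case in the sequences of H2-K1 and B2m above. The Tapbp window held no match to the other motifs. A match is a description of these letters and does not show that a factor binds.
Psmb8 element: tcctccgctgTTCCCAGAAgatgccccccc
Erap1 element: ccaccttcacTTTCACTTTCggtcccgggc
Tap1 and Psmb9 element: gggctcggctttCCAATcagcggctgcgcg

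In Van compared with Con, 0 of the 10 genes were called by the quasi-likelihood test of edgeR, where 2.00% of all genes tested were. DESeq2's Wald test also called 0 of the 10, where it called 7.36% of the 13063 genes to which it gave an adjusted p. At an unadjusted p under 0.05, edgeR gave 2 of the 10, Tap1 and Psmb9, where 16.5% of all genes tested passed. Both were lower in Van, and 8.14% of all genes tested passed in that direction. The fitted change was negative for 9 of the 10 genes, where 50.4% of all genes tested were lower in Van by any amount. The median log2 fold change of the 10 genes was -0.11, against -0.0014 over all genes tested. For 0 of the 10 genes did the 3 Van and the 3 Con libraries not overlap, where 22.5% of all genes tested did not overlap. The median standard error of the log2 fold change was 0.09 for the 10 genes and 0.06 for the 2230 genes with a mean of at least 100 CPM.

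**Figure D1:**
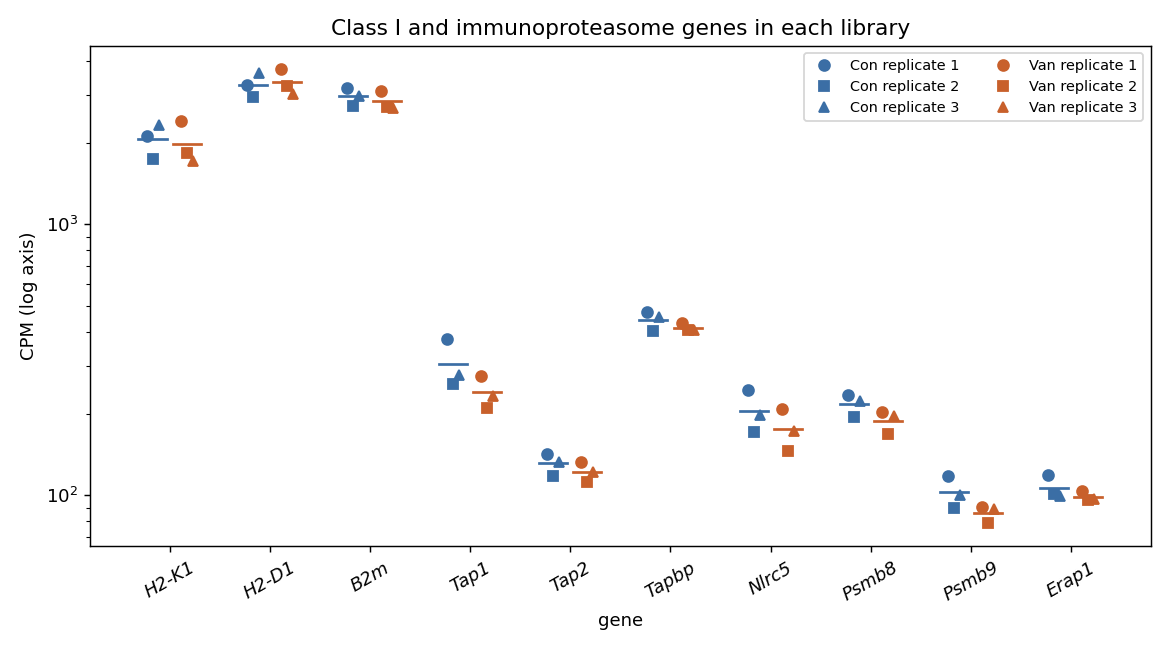
CPM on a log axis (vertical) of the 10 genes (horizontal) in each of the 3 Con (blue) and 3 Van (orange) libraries, with the replicate number given by the symbol and the group mean by a line. The 2 groups overlap for every one of the 10 genes, and replicate 1 is the highest library of both groups for most of them.

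The classical heavy chains were among the most abundant messages of the cells and did not pass the test. H2-K1 (ENSMUSG00000061232), which encodes the K heavy chain that holds the peptide, stood at 2121, 1735 and 2319 CPM in Con and at 2408, 1830 and 1708 CPM in Van. The Van libraries thus held the highest and the lowest value of all 6. The log2 fold change was -0.05 ± 0.14 (SE), with a 95% confidence interval of -0.38 to 0.27 and an adjusted p of 0.903 from edgeR. It ranged from -0.22 without Van replicate 1 to 0.04 without Con replicate 3. On the linear scale this interval runs from 0.770-fold to 1.20-fold. H2-D1 (ENSMUSG00000073411), the D heavy chain, stood at 3264, 2957 and 3599 CPM in Con and at 3747, 3228 and 3021 CPM in Van, and the groups overlapped throughout. For H2-D1 the log2 fold change was 0.03 ± 0.10 (SE), with a 95% confidence interval of -0.19 to 0.24 and an adjusted p of 0.935 from edgeR, and it ranged from -0.07 without Van replicate 1 to 0.10 without Con replicate 3. On quantile-normalized FPKM, tested by limma in log2 with a pseudocount of 1, it was 0.22, with an adjusted p of 0.47.

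Class I heavy chain genes are close copies of each other, and how reads that fit several of them were counted is not given in the sources used here. No window of 100 bases of the longest H2-K1 transcript recurred in another gene. For H2-D1, 3.49% of such windows recurred, in Gm8909, H2-Q7 or H2-T22. The longest match of H2-K1 to H2-D1 was 251 bases at 95.2% identity. With the counts of H2-K1 and H2-D1 summed into 1 row, the log2 fold change was -0.0048 with an adjusted p of 0.991, and with those of all class I heavy chain genes on the list summed it was -0.02 with an adjusted p of 0.958.

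B2m (ENSMUSG00000060802) encodes the light chain that every class I heavy chain needs to reach the surface. It stood at 3186, 2724 and 2978 CPM in Con and at 3109, 2714 and 2689 CPM in Van, with overlapping groups and the tightest estimate of the 3 surface chains. Its log2 fold change was -0.06 ± 0.08 (SE), with a 95% confidence interval of -0.24 to 0.12 and an adjusted p of 0.771. It ranged from -0.13 without Van replicate 1 to -0.0093 without Con replicate 1. Per length, the summed FPKM of H2-K1 and H2-D1 was 0.801, 0.802 and 0.939 times that of B2m in Con and 0.929, 0.866 and 0.815 times in Van. The values of the 2 groups were interleaved.

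The genes that carry peptides to the heavy chain differed more among themselves. Tap1 (ENSMUSG00000037321), a subunit of the peptide transporter, stood at 376, 257 and 278 CPM in Con and at 276, 209.6 and 233 CPM in Van. It had the lowest fitted value of the 10 genes, a log2 fold change of -0.34 ± 0.15 (SE), with a 95% confidence interval of -0.68 to -0.0024. The unadjusted p from edgeR was 0.0487 and the adjusted p 0.300. Con replicate 1 stood far above the other 2 Con libraries, and without it the log2 fold change of Tap1 was -0.16. The highest Van library exceeded the lowest Con library. Tap2 (ENSMUSG00000024339), the partner subunit of the transporter, stood at 142, 118 and 133 CPM in Con and at 133, 112 and 121 CPM in Van. For Tap2 the log2 fold change was -0.10 ± 0.09 (SE), with a 95% confidence interval of -0.30 to 0.10 and an adjusted p of 0.630. Leaving out Con replicate 2 gave -0.17 and leaving out Con replicate 1 gave -0.04. The values of Tap2 were interleaved between the groups.

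Tapbp (ENSMUSG00000024308) encodes tapasin, which holds an empty class I molecule at the transporter. It stood at 472, 404 and 454 CPM in Con and at 433, 405 and 408 CPM in Van, and the lowest of all 6 libraries was in Con. Tapbp had a log2 fold change of -0.09 ± 0.07 (SE), with a 95% confidence interval of -0.25 to 0.06 and an adjusted p of 0.558. With Con replicate 2 left out it was -0.16, and with Con replicate 1 left out -0.05. Exons of Tapbp overlap those of Gm19412 on the opposite strand and of Zbtb22 on the same strand, and exons of Tap2 overlap those of Gm15821 and Gm20496 on the opposite strand. Exons of Tap1 and Psmb9 overlap over 212 bases on opposite strands. The library kit marks the strand but whether the counting used it is not given in the sources used here, so reads from such overlaps may be shared.

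The immunoproteasome subunits lie beside the transporter genes, and neither passed the test. Psmb8 (ENSMUSG00000024338), which encodes LMP7, stood at 234, 194 and 223 CPM in Con and at 203, 168 and 195 CPM in Van. Here the highest Van library and the lowest Con library crossed. For Psmb8 the log2 fold change was -0.20 ± 0.09 (SE), with a 95% confidence interval of -0.41 to 0.01, an unadjusted p of 0.0587 and an adjusted p of 0.326 from edgeR. Psmb9 (ENSMUSG00000096727), which encodes LMP2, stood at 118, 89.7 and 99.9 CPM in Con and at 90.6, 78.6 and 89.0 CPM in Van. Only the crossing of Van replicate 1 with Con replicate 2 kept the groups of Psmb9 from being apart. For Psmb9 it was -0.25 ± 0.10 (SE), with a 95% confidence interval of -0.49 to -0.02, an unadjusted p of 0.0394 and an adjusted p of 0.277 from edgeR. With each library left out in turn, the log2 fold change lay between -0.28 and -0.12 (without Van replicate 2) for Psmb8 and between -0.34 and -0.14 (without Con replicate 1) for Psmb9. Exons of Psmb8 overlap those of Gm20496 on the opposite strand.

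**Figure D2:**
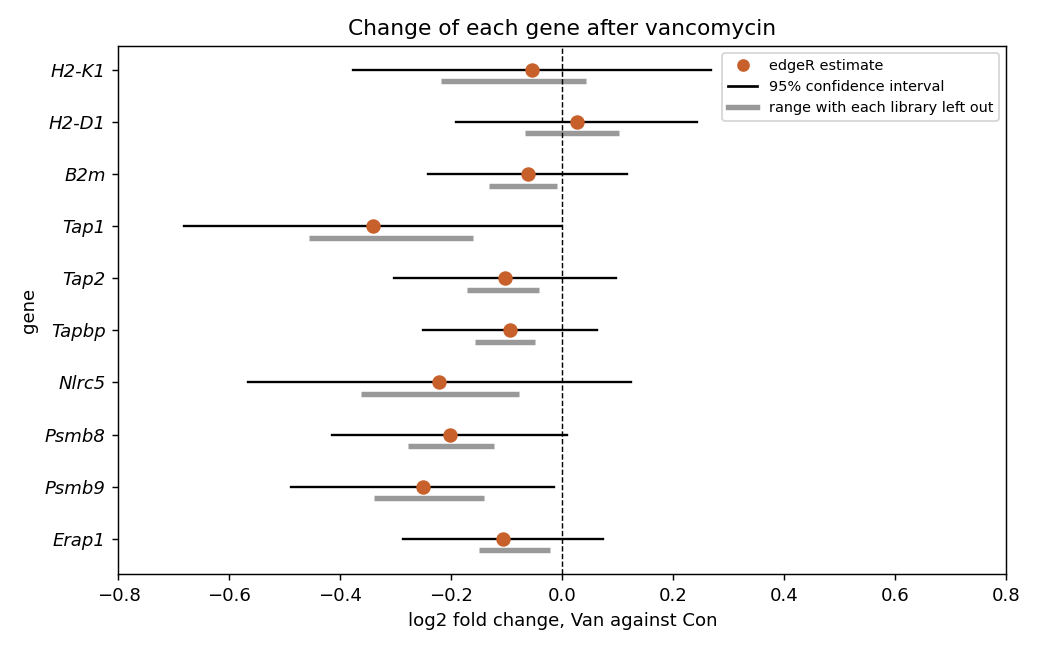
Log2 fold change of Van against Con (horizontal) for each of the 10 genes (vertical), as the edgeR estimate (orange point), its 95% confidence interval (black line) and the range over the 6 fits that each leave out 1 library (grey bar). H2-K1 and H2-D1 lie near 0, and Tap1 has the lowest estimate at -0.34 with an interval that ends at -0.0024.

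Because the immunoproteasome subunits take the place of constitutive ones, each was set against the subunit it replaces, per length, within each library. Psmb5, Psmb6 and Psmb7 encode the constitutive catalytic subunits, and Psmb10 encodes the remaining catalytic subunit of the immunoproteasome, MECL-1. The FPKM of Psmb8 was 2.49, 2.16 and 2.32 times that of Psmb5 in Con and 2.30, 1.69 and 1.91 times in Van. That of Psmb9 was 1.11, 0.815 and 0.962 times that of Psmb6 in Con and 0.936, 0.713 and 0.814 times in Van. That of Psmb10 was 1.65, 1.40 and 1.67 times that of Psmb7 in Con and 1.56, 1.38 and 1.37 times in Van. For all 3 pairs the mean was lower in Van and the groups overlapped. The mean log2 ratio differed between Van and Con by -0.25 for Psmb8 to Psmb5, by -0.23 for Psmb9 to Psmb6 and by -0.13 for Psmb10 to Psmb7. Single libraries moved these values: Psmb8 to Psmb5 was -0.15 without Van replicate 2. Psmb9 to Psmb6 was -0.12 with Con replicate 1 left out, -0.13 with Van replicate 2 left out and -0.34 with Con replicate 2 left out. Psmb10 to Psmb7 was -0.08 without Con replicate 3 and -0.21 without Con replicate 2. The exact two-sided permutation test over libraries gave a p of 0.2 for each pair, and 0.2 after Benjamini-Hochberg adjustment over the 3 pairs. With 3 libraries against 3 this test cannot go below 0.10. The constitutive subunits did not pass edgeR's test, with log2 fold changes of 0.06 for Psmb5, 0.0018 for Psmb6 and -0.03 for Psmb7, and with each library left out these stayed between -0.0614 and 0.1187.

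**Figure D3:**
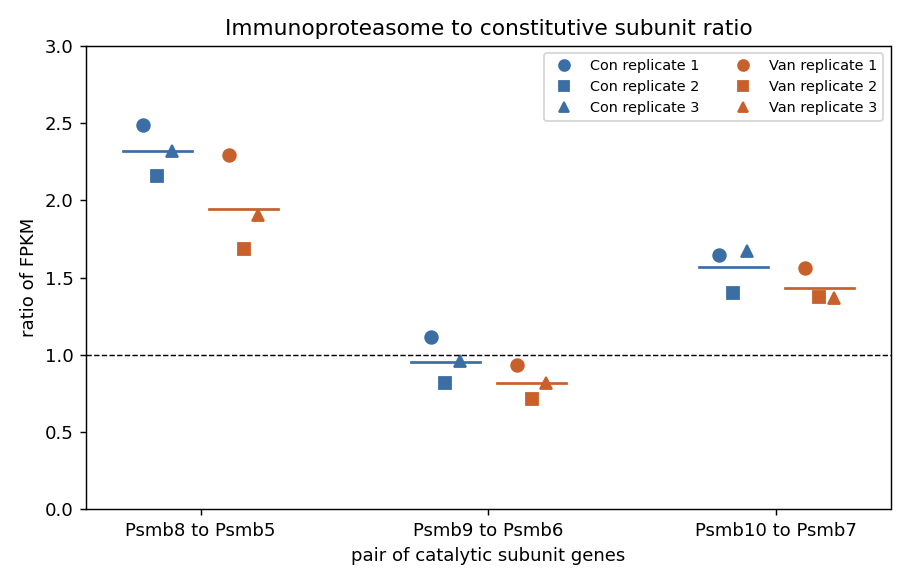
Ratio of the FPKM of an immunoproteasome subunit gene to that of the constitutive subunit it replaces (vertical, from 0) for 3 pairs (horizontal) in each Con (blue) and Van (orange) library, with group means of the log2 ratio as lines. Psmb8 exceeded Psmb5 in all 6 libraries, from 1.69 to 2.49 times, whereas Psmb9 stood at 0.713 to 1.11 times Psmb6.

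Erap1 (ENSMUSG00000021583) encodes the aminopeptidase that trims peptides in the endoplasmic reticulum. It stood at 119, 101 and 99.5 CPM in Con and at 103, 96.2 and 97.0 CPM in Van. Con replicate 1 was again the highest library and the groups overlapped. Its log2 fold change was -0.11 ± 0.08 (SE), with a 95% confidence interval of -0.29 to 0.07 and an adjusted p of 0.569, and it was -0.02 without that library. The longest Erap1 transcript shared 13.3% of its 100-base windows with Cast, which lies on the opposite strand.

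Nlrc5 (ENSMUSG00000074151) encodes the transactivator of class I genes. It stood at 243, 172 and 197 CPM in Con and at 208, 145 and 172 CPM in Van. The values were spread widely within both groups, which overlapped. Nlrc5 had a log2 fold change of -0.22 ± 0.15 (SE), with a 95% confidence interval of -0.57 to 0.12 and an adjusted p of 0.531. Over the fits that each left out 1 library it ranged from -0.36 without Van replicate 1 to -0.08 without Con replicate 1.

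Per length, the 10 genes held the same order in all 6 libraries. B2m was the highest with a median of 2825 FPKM (range 2615 to 3067), which placed it at rank 5 of the 16138 genes tested. H2-D1 followed with a median of 1379 FPKM (range 1240 to 1577) at rank 23, and H2-K1 with 1020 FPKM (range 862 to 1225) at rank 35. Below these surface chains came Tapbp with a median of 127 FPKM, Psmb8 with 101, Tap1 with 78.0 and Psmb9 with 52.0. Tap2 with 34.7, Nlrc5 with 26.3 and Erap1 with 21.0 FPKM were the lowest. The peptide-supply genes were thus lower than the surface chains in every library, and Tap1 was higher than its partner Tap2 in every library. Within a library every gene exceeded the next in this order. The ranges over the 6 libraries were apart for B2m and H2-D1, H2-D1 and H2-K1, H2-K1 and Tapbp, Tapbp and Psmb8, and Psmb9 and Tap2. They overlapped for Psmb8 and Tap1, Tap1 and Psmb9, Tap2 and Nlrc5, and Nlrc5 and Erap1, although the order of these neighbours was the same within every library.

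The 10 genes deviated from their own means together, library by library. In Con replicates 1 and 3 and in Van replicate 1, 9 of the 10 genes lay above their own mean log2 CPM. In Con replicate 2 and Van replicates 2 and 3, 0 of the 10 did, while over all genes tested the share above their own mean lay between 49.8% and 52.6% in every library. Averaged over the 10 genes, the centred log2 CPM was 0.22, -0.09 and 0.09 in Con and 0.08, -0.18 and -0.11 in Van. The libraries of the 2 groups were therefore interleaved on this average. Con replicate 1 was the highest library for 8 of the genes and Van replicate 1 for the other 2, H2-K1 and H2-D1. Van replicate 2 was the lowest library for 6 of them.

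Over the 6 libraries, all 45 pairs of the genes had a positive Pearson correlation of log2 CPM, with a median of 0.863. The lowest was 0.132, for H2-D1 with Erap1, and the highest 0.985, for Tap2 with Nlrc5. The correlation was 0.954 for H2-K1 with H2-D1 and 0.963 for Tap1 with Psmb9. After the group means were taken off, the median was 0.829, so the genes also deviated together within the groups. These correlations describe 6 libraries whose scaling, depth and cell content the points share, and they carry no test. The spread within groups was wide for these genes. The SD of log2 CPM within groups had a median of 0.147 over the 10 genes and of 0.0777 over the 2230 genes with a mean of at least 100 CPM. It was 0.256 for Nlrc5, 0.2496 for Tap1 and 0.239 for H2-K1, and lowest at 0.0902 for Tapbp.

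**Figure D4:**
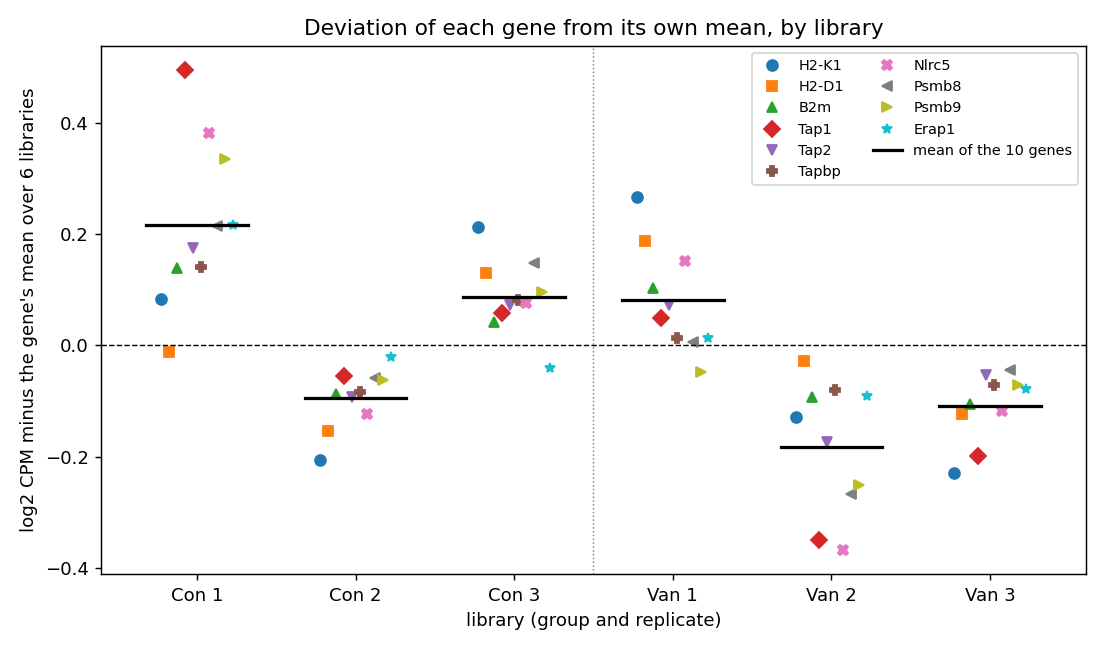
Log2 CPM of each of the 10 genes minus its mean over the 6 libraries (vertical) by library (horizontal), with a symbol per gene and a black line for the mean of the 10 genes. The mean is 0.22 in Con replicate 1 and -0.18 in Van replicate 2, and 9 or 0 of the 10 genes lie above 0 in each library.

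Among 8389 genes outside the lists with a mean of at least 10 CPM, the 5 whose log2 CPM was most like the mean profile of the 10 genes over the 6 libraries were Wdr45b (Pearson r = 0.997), Atxn7l1 (0.988), Cst3 (0.979), Chrac1 (0.979) and Pik3cb (0.974). Cst3 encodes the secreted protease inhibitor cystatin C and Pik3cb a catalytic subunit of phosphoinositide 3-kinase. None of the 5 was called by edgeR, and the lowest of their adjusted p-values was 0.387, for Chrac1.

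The rest of the pathway was taken from 6 lists of 65 further genes, of which 64 were found in the table and 61 were tested. By edgeR, 0 of the 61 were called, 28 being lower and 33 higher in Van by any amount with a median log2 fold change of 0.02. At an unadjusted p under 0.05 there were 9 lower and 9 higher, together 18 of 61, where 16.5% of all genes tested passed. The groups did not overlap for 17 of 61, of which 6 were lower and 11 higher, against 22.5% of all genes tested. DESeq2's Wald test called 5 of the 61, Mr1, Rfx5, Stat2, Calr and Canx, where it called 7.36% of the 13063 genes to which it gave an adjusted p. The lists are given by their counts in the order of the pathway.

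**Figure D5:**
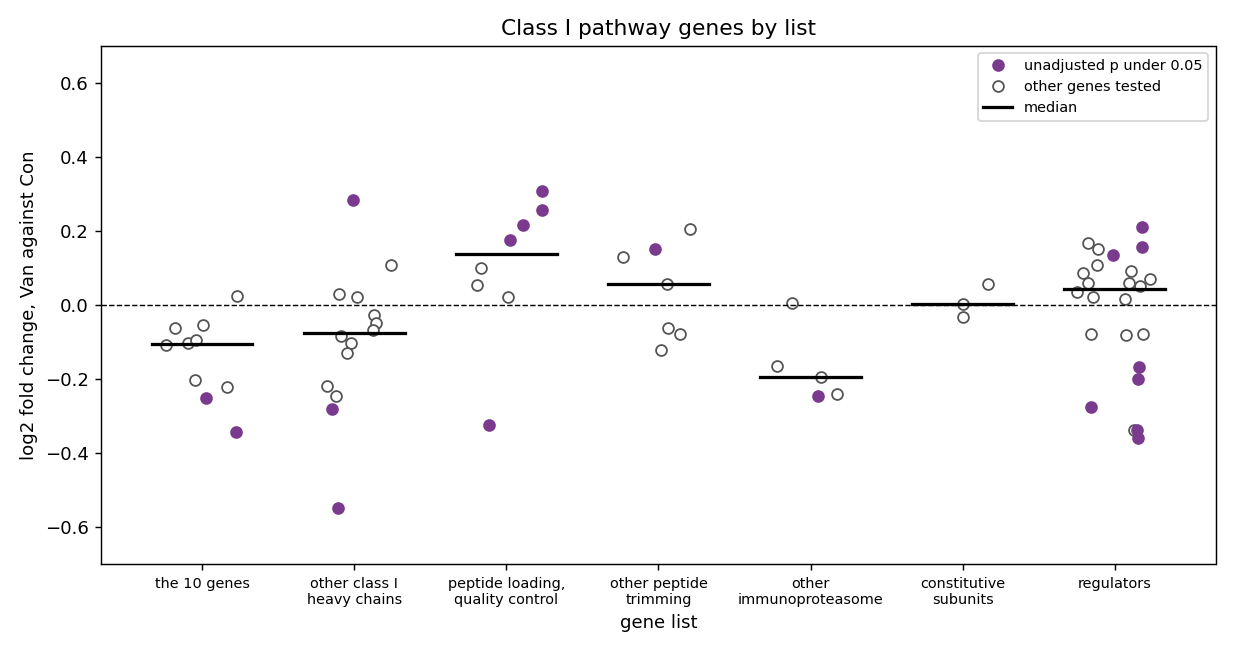
Log2 fold change of Van against Con (vertical) of each gene tested, by list (horizontal), with genes at an unadjusted p under 0.05 from edgeR filled and the median of each list as a line. The median was -0.11 for the 10 genes, 0.14 for peptide loading and quality control and -0.19 for the other immunoproteasome genes.

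Of the other class I heavy chains, 14 of 18 were tested, and 10 were lower and 4 higher by any amount, with a median of -0.08, and 3 of the 14 reached an unadjusted p under 0.05. H2-T24 had a log2 fold change of -0.28 (adjusted p = 0.171) and Cd1d1, which presents lipids to NKT cells, one of 0.28 (adjusted p = 0.139). Cd1d1 stood at 22.5, 18.9 and 20.7 CPM in Con and at 24.1, 25.8 and 25.7 CPM in Van, where the groups did not overlap. Mr1, which presents vitamin B metabolites to MAIT cells, was named after its values were seen. It stood at 11.8, 10.3 and 9.92 CPM in Con and at 6.57, 7.53 and 7.79 CPM in Van, without overlap. Its log2 fold change was -0.55 ± 0.12 (SE), with an adjusted p of 0.0584 from edgeR and 0.0061 from DESeq2.

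Of the 8 genes of peptide loading and quality control, 7 were higher and 1 lower by any amount, with a median of 0.14, and 0 were called by edgeR. An unadjusted p under 0.05 was reached by 5 of the 8, of which 4 were higher and 1 lower, where 16.5% of all genes tested passed. Calr, which encodes the chaperone calreticulin, stood at 433, 416 and 469 CPM in Con and at 498, 630.2 and 504 CPM in Van. The groups of Calr did not overlap. The log2 fold change was 0.31 ± 0.10 (SE), with an adjusted p of 0.157 from edgeR and 0.0318 from DESeq2, and it was 0.19 without Van replicate 2. The lectin chaperone gene Canx, named after its values were seen, had a log2 fold change of 0.22, with an adjusted p of 0.116 from edgeR and 0.0218 from DESeq2. Tapbpl, which encodes the tapasin homologue TAPBPR, was the lower gene, with a log2 fold change of -0.32 and an adjusted p of 0.291.

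Of 7 other peptide trimming enzymes, 4 were higher and 3 lower by any amount, with a median of 0.06, and 1 of the 7 reached an unadjusted p under 0.05. The leucine aminopeptidase gene Lap3 had a log2 fold change of 0.15 (adjusted p = 0.281) and the puromycin-sensitive aminopeptidase gene Npepps one of 0.13 (adjusted p = 0.372), which was 0.08 without Van replicate 3. Of 5 further immunoproteasome and activator genes, 4 were lower and 1 higher by any amount, with a median of -0.19, and 1 of the 5 reached an unadjusted p under 0.05. The subunits of the PA28 activator were among the lower ones. Psme2 stood at 164, 127 and 148 CPM in Con and at 131, 108 and 134 CPM in Van, with a log2 fold change of -0.24 (adjusted p = 0.332), which was -0.14 with Van replicate 2 left out and -0.15 with Con replicate 1 left out. Psme2b, a close copy of Psme2 whose reads may be shared with it, had a log2 fold change of -0.25 (adjusted p = 0.177).

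Of 24 regulators of class I genes, 15 were higher and 9 lower by any amount, with a median of 0.04, and 0 were called by edgeR. An unadjusted p under 0.05 was reached by 8 of the 24, of which 5 were lower and 3 higher, against 16.5% of all genes tested. Con and Van libraries did not overlap for 9 of the 24, where the share over every gene tested was 22.5%. Rfx5, a subunit of the RFX complex that binds MHC promoters, stood at 32.0, 29.1 and 32.7 CPM in Con and at 25.2, 24.9 and 22.95 CPM in Van. The groups of Rfx5 did not overlap. Its log2 fold change was -0.36 ± 0.08 (SE), with an adjusted p of 0.0551 from edgeR and 0.00624 from DESeq2. In edgeR the adjusted p was 0.0463 with at least 10 counts required in every library and 0.0473 on the fragment scale. Stat2, named after its values were seen, had a log2 fold change of -0.27, with an adjusted p of 0.104 from edgeR and 0.013 from DESeq2. Irf1, an interferon-induced activator of class I and immunoproteasome genes that was also named after its values were seen, stood at 529, 286 and 308 CPM in Con and at 341, 275 and 273 CPM in Van. Con replicate 1 was the highest library for Irf1, as it was for 8 of the 10 genes. Without that library, the log2 fold change of Irf1 was -0.0054, against -0.34 with it.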

How the data were processed

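The data are mRNA libraries of splenic monocytes, 3 from Con and 3 from Van mice, and those of the study's VanLip group are not used here. The authors aligned the reads to GRCm38 with HISAT2 2.2.1 and SAMtools 1.9. FPKM values were made by the authors with StringTie 2.1.3 and Ballgown, scaled to transcript length and to depth, and were used as deposited. The estimated counts were made by the authors from these with tximport and deposited without scaling to library size. Multiplied by 75, between 52.3% and 55% of the counts above 0 were whole within 0.05 (between 9.56% and 9.98% with 74), so fragments were estimated as the count times 75, divided by 2 reads of the stated 100 bases. No library of a group was a duplicate of another (chi-square per gene of 7.68 or more on the fragment scale, where counting noise alone gives about 1).

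For the main test the estimated counts were rounded. In edgeR 4.0.16 (R 4.3.3), genes were filtered with filterByExpr (minimum count of 10), scaled by TMM and tested by quasi-likelihood, with no covariate besides the group. Benjamini-Hochberg adjustment was over all 16138 identifiers tested, with calls at 0.05. P-values rest on the spread between 3 mice a group. Alternatives were DESeq2 1.42.0, other scalings and filters, limma 3.58.1 on quantile-normalized FPKM in log2 with a pseudocount of 1 or 0.1, the fragment scale, a single identifier per symbol, the replicate number as a block, and each library left out. The tests were tested on simulated data. Ratios were compared with scipy 1.17.1.

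The 10 genes, the pathway lists, the marker lists and the tests were chosen with earlier results of these data known. Named are the 10 genes, list genes that were called, the 2 genes of each list with the largest absolute change at a mean of at least 10 CPM, the 5 genes most like the mean profile, and markers. Genes were matched by symbol, 1 of them (Nrdc, listed as Nrd1) through a RefSeq synonym, and H2-T9 was not matched. H2-Q2, H2-T3 and H2-M5 were not tested. Some genes that this rule names are not reported here. Gene coordinates are from GENCODE and promoters from RefSeq (GRCm38.p6). Near-identical copies are matches of at least 200 bases at 95% identity.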

Additional observations from a re-analysis of the deposited data

How the results depend on the processing

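Under all 17 alternatives, 0 of the 10 genes were called, and the median log2 fold change of the 10 genes stayed negative, between -0.19 and -0.05 with each library left out (-0.05 without Con replicate 1, -0.19 without Van replicate 1). Of 174 values of single genes under the alternatives, 7 had the opposite sign, all in H2-K1 or H2-D1, and the lowest adjusted p was 0.0893. H2-K1 ranged from -0.2178 to 0.0431 with each library left out and was above 0 without Con replicate 3 (0.0431) or when either Van replicate 2 (0.0008) or Van replicate 3 (0.042) was dropped. H2-D1 ranged from -0.0664 to 0.1023 and was below 0 without Con replicate 2 (-0.0426) or Van replicate 1 (-0.0664), at -0.0048 with both heavy chains summed and at -0.0202 with all class I heavy chains summed. It was at 0.22 with limma on log2(FPKM + 1) values, where the cause was not tested. Of the 10 genes, between 0 and 4 had an unadjusted p under 0.05, with 4 each under the replicate block, without Con replicate 2 and without Van replicate 1. The differences in log2 ratio kept their sign, from -0.37 to -0.15 for Psmb8 to Psmb5, -0.34 to -0.12 for Psmb9 to Psmb6 and -0.21 to -0.08 for Psmb10 to Psmb7 with each library left out.

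The 322 genes called over the whole table became 962 with DESeq2, 39 with limma on log2(FPKM + 1), 4 with log2(FPKM + 0.1), 47 with an FPKM filter and between 21 and 136 with each library left out (21 without Van replicate 2 and 22 without Con replicate 3). Over all genes tested, deviations of same-numbered libraries from their group means had correlations of 0.0253, -0.00192 and -0.0726. Such values cannot decide whether a number marks a shared cage, litter or day, which no source states. On the average of the 10 genes, replicate 1 was the highest and replicate 2 the lowest library of both groups. With the replicate block edgeR called 110 genes, and the adjusted p of Tap1 was 0.0893. Of the pathway genes, 0 were called in edgeR with the settings of the report, 5 with DESeq2, and in edgeR 1 (Rfx5) with at least 10 counts in every library and 1 (Rfx5) on the fragment scale. Every one of the 10 genes had at least 4008 estimated counts in each library, and there were 3 mice a group.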
